A study of Mus musculus with 6 samples.

Results

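Ephrins and Eph receptors were read from Affymetrix arrays of mouse mammary EpRas tumor cells, as a group of 10 genes listed by symbol: the ephrin genes *Efna1*, *Efna5*, *Efnb1* and *Efnb2* and the receptor genes *Epha2*, *Epha4*, *Ephb1*, *Ephb2*, *Ephb3* and *Ephb4*. The array reads 18820 genes through probe sets of their own, 9 of them from this list, and *Ephb2*, for which the annotation used here gives no probe set, was not analysed here. Long-term EMT cells were EpRas cells given 2 ng/ml of recombinant human TGF-β1 for 14 days (3 arrays), and control cells were EpRas cells that received none (3 arrays). Both groups derive from EpH4 mammary epithelial cells of BALB/c background that stably overexpress the Ha-Ras oncogene, so that Ha-Ras was present in the controls as well and a single line stood for each condition. Where several probe sets stood for 1 gene, the brightest by its mean over the 6 arrays was taken. Values are log2 values made with the Robust Multi-array Average (RMA). A gene passed at an adjusted p under 0.05 from limma with a fold above 1.5, and rose or fell refers to genes that passed. The background level, 4.48, was the 95th percentile of the mean values of 1006 olfactory receptor probe sets. These were taken to stand for genes that mammary cells do not use, which was not tested. One control array, replicate 1, stood apart on the array as a whole: its correlations with the other controls over probe sets (no independent replicates) were 0.987 and 0.984, where that of control replicates 2 and 3 with each other was 0.995. The calls are also given without it.

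Eph receptors are the largest family of receptor tyrosine kinases, and their ligands, the ephrins, are themselves held in the membrane, so that the receptor and the ligand meet where cells touch. A-type ephrins are attached by a lipid anchor and bind mainly EphA receptors, while B-type ephrins span the membrane and bind mainly EphB receptors. Signals run both ways, forward through the receptor and in reverse through the ephrin, and act on the cytoskeleton to repel cells from each other or hold them together, as in tissue boundaries, axon guidance, vessels and epithelia.

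In long-term EMT cells *Efnb1*, which encodes the transmembrane ligand ephrin-B1, rose 2.45-fold, while the receptor genes *Ephb3* and *Epha4* fell 4.30-fold and 3.31-fold and the ligand gene *Efna5* fell 1.94-fold. The other 5 measured genes, *Efna1*, *Efnb2*, *Epha2*, *Ephb1* and *Ephb4*, did not pass. Of the 9 genes, 1 rose and 3 fell, where 0.993% of all 35556 probe sets rose and 0.928% fell. Of the 18820 genes read in the same way, 2.96% passed in either direction, and of the 13418 genes above the background level in at least 1 group, 4.14% did. The median log2 difference was 0.033 over the 9 genes and 0.02 over all probe sets. All 9 genes had a mean above the background level in both groups.

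The 300 bases around the transcription start are shown for *Efnb1*, which rose, and for *Ephb3* and *Epha4*, the 2 genes with the deepest falls, because the cells were treated with TGF-β1 and its Smad factors bind the letters CAGAC. The sequences are from RefSeq on GRCm38.p6, which is another strain than that of the cells, and run from 250 bases before to 50 after the start, with each CAGAC, or GTCTG on the other strand, in capitals. The promoter of *Efnb1* (chrX:99135811-99136110, plus strand) holds 1 match, that of *Ephb3* (chr16:21204545-21204844, plus strand) 1 and that of *Epha4* (chr1:77515039-77515338, minus strand) 3.
Efnb1: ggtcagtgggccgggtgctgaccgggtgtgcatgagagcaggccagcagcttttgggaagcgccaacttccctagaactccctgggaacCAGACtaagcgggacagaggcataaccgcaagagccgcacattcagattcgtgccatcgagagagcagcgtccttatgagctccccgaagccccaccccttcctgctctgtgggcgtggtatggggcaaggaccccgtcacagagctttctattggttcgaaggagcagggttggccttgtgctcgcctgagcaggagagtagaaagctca
Ephb3: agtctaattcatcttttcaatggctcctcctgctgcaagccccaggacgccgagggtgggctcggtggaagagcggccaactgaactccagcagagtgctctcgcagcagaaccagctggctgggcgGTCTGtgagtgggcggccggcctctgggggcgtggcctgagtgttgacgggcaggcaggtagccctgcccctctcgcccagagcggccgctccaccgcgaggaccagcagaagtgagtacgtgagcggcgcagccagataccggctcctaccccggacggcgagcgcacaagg
Epha4: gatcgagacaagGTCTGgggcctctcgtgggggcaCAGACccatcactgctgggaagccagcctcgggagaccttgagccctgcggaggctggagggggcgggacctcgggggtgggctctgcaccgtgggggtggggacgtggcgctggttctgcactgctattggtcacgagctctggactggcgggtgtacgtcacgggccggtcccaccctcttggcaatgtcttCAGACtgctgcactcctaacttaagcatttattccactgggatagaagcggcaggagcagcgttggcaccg
The promoter of *Efna5*, the fourth gene that passed, holds none. Over all 10 genes, 11 promoters were listed, since *Efna1* has 2, and 7 of the 11 hold CAGAC on either strand, as do 49.6% of 32851 mouse promoters of the same length. CAGGTG, the E-box that Zeb and Snail factors bind (CACCTG on the other strand), is in 2 of the 11, those of *Efnb2* and *Ephb2*, and in 20.2% of all promoters. CTTTGA, a core of the Tcf/Lef motif (TCAAAG on the other strand), is in 1 of the 11, that of *Epha2*, and in 16.0% of all promoters. On the 3 sequences shown, CAGAC was the only one of these motifs found, so that no matches overlap. The 11 promoters are rich in G and C, with a median of 64.0% and 20 CpG dinucleotides, against a median of 52.7% and 7 over all promoters. These matches describe the letters only, and binding was not measured.

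Of the B-type ligands, *Efnb1* had values of 9.22, 9.25 and 9.82 in long-term EMT cells, against 8.33, 8.07 and 8.02 in control cells. Every long-term EMT array lay above every control array, with replicate 3 the highest of its group. The log2 difference was 1.29 (standard error 0.19, n = 3 arrays in each group), with adjusted p = 0.026 from limma. The second B-type ligand gene, *Efnb2*, encodes ephrin-B2, known as the arterial partner of EphB4 in vessels. It had values of 7.98, 8.32 and 8.26 in long-term EMT cells and 8.25, 7.74 and 7.95 in control cells. These groups overlapped, and the log2 difference was 0.21 (95% interval -0.18 to 0.59, adjusted p = 0.679 from limma). The log2 difference of *Efnb1* was larger than that of *Efnb2* by 1.08 (standard error 0.20), and these within-array differences did not overlap between the groups. This and the 3 pairs below were chosen after the values were seen, and each had an exact two-sided permutation p = 0.10, also after adjustment over the 4 pairs, which is the smallest that 3 arrays against 3 can give. The standard errors of the pairs come from the spread of 3 arrays in each group alone, unlike those of single genes, which are from limma.

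Of the A-type ligands, *Efna5* fell and *Efna1* did not pass. *Efna5* encodes ephrin-A5, a lipid-anchored ligand of EphA receptors that guides axons. Its values were 9.09, 8.85 and 9.13 in long-term EMT cells, against 10.20, 9.81 and 9.92 in control cells, and the groups did not overlap. The log2 difference was -0.95 (standard error 0.13, adjusted p = 0.0239 from limma). *Efna1* encodes ephrin-A1, the usual ligand of EphA2. It had values of 9.43, 9.39 and 9.12 in long-term EMT cells and 9.50, 9.19 and 9.15 in control cells. The groups overlapped throughout, with a log2 difference of 0.033 and a 95% interval of -0.29 to 0.36. The changes of *Efna5* and *Efna1* differed by -0.99 (standard error 0.17, exact permutation p = 0.10). In RefSeq *Efna1* lies beside *Efna3* and *Efna4*, the genes of ephrin-A3 and ephrin-A4, on chromosome 3. Neither of these neighbors passed, with log2 differences of 0.17 (standard error 0.38) and 0.21 (standard error 0.21).

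Among the EphB receptors, *Ephb3* had the deepest fall of the 9 genes. EphB3 and EphB2 are known from the mouse intestine, where they keep epithelial cells in place along the crypt. *Ephb3* had values of 6.33, 6.33 and 6.19 in long-term EMT cells, against 8.69, 8.29 and 8.18 in control cells. The long-term EMT arrays lay close together and far below the lowest control. The log2 difference was -2.10 (standard error 0.14, adjusted p = 0.00274 from limma). *Ephb4*, the receptor gene of the venous endothelium and of ephrin-B2, had values of 9.54, 9.65 and 9.61 in long-term EMT cells and 9.89, 9.53 and 9.41 in control cells. The long-term EMT arrays lay within the range of the controls, and the log2 difference was -0.01 (95% interval -0.34 to 0.32). The changes of *Ephb3* and *Ephb4* differed by -2.09 (standard error 0.06, exact permutation p = 0.10). *Ephb1*, a receptor of B-type ephrins best known from the nervous system, had values of 5.60, 6.29 and 6.42 in long-term EMT cells, against 5.17, 5.46 and 5.08 in control cells. The groups did not overlap, and long-term EMT replicate 1 lay nearest to the controls. The log2 difference of 0.87 (standard error 0.23, 95% interval 0.31 to 1.43) did not pass, with adjusted p = 0.155 from limma. A second probe set of *Ephb1* had means of 3.68 in long-term EMT cells and 3.63 in control cells, both under the background level.

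**Figure D1:**
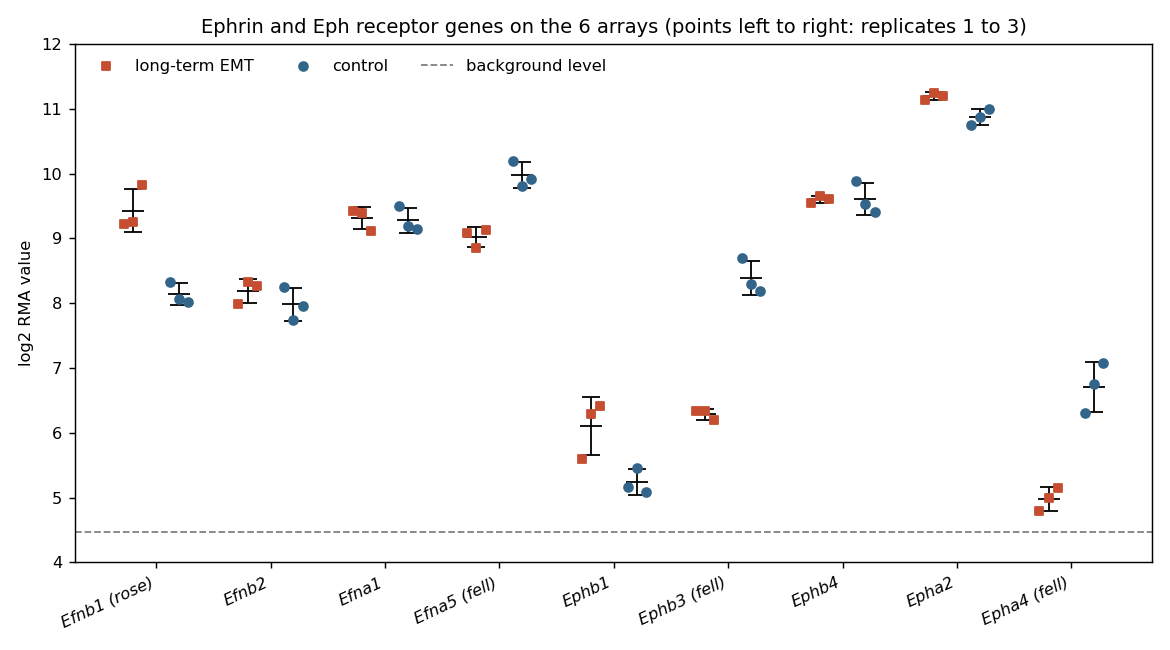
Log2 RMA values of the 9 measured ephrin and Eph receptor genes on each array, in long-term EMT cells (squares, n = 3) and control cells (circles, n = 3). Black bars give each group's mean and SD, and the background level of 4.48 is dashed. The groups do not overlap for *Efnb1*, *Efna5*, *Ephb1*, *Ephb3*, *Epha2* and *Epha4*, and the long-term EMT values of *Epha4* near the dashed line.

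Of the EphA receptors, *Epha4* fell and *Epha2* did not pass. *Epha4*, whose receptor binds ephrins of both types, had values of 4.79, 5.00 and 5.15 in long-term EMT cells, against 6.30, 6.75 and 7.07 in control cells. The groups were well apart, and the long-term EMT arrays lay just above the background level. The log2 difference was -1.73 (standard error 0.21, adjusted p = 0.0144 from limma). Its long-term EMT mean of 4.98 was lower than 5.09, the 99th percentile of the olfactory receptor probe sets, and by that level the fall is a lower bound. *Epha2*, the gene of a receptor of epithelia and many carcinomas, had values of 11.13, 11.25 and 11.20 in long-term EMT cells, against 10.75, 10.87 and 11.00 in control cells. The long-term EMT arrays all lay above the controls, by a log2 difference of 0.32 (standard error 0.09, 95% interval 0.10 to 0.54, adjusted p = 0.185 from limma). The changes of *Epha4* and *Epha2* differed by -2.05 (standard error 0.17, exact permutation p = 0.10). In all, the groups did not overlap for 6 of the 9 genes, 3 higher and 3 lower, where 19.2% of all probe sets (10.5% higher and 8.68% lower) and 24.1% of all genes had groups apart in this way.

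Among the genes that passed, only *Ephb3* also passed in every fit that left out 1 array. Such fits have fewer arrays, and calls over all probe sets changed too, from 683 to between 205 and 954. When each array in turn was left out, *Ephb3* passed in all 6 fits, with log2 differences between -2.21 and -1.95, of which -1.95 is that without control replicate 1. *Epha4* passed in 2 fits, those without control replicate 1 (-1.93, adjusted p = 0.00474 from limma) and without control replicate 3 (-1.55, adjusted p = 0.0254), and its adjusted p lay between 0.0614 and 0.083 without control replicate 2 or any 1 of the long-term EMT arrays. *Efnb1* passed in 2 fits, without control replicate 1 (1.39, adjusted p = 0.0273) and without long-term EMT replicate 3 (1.09, adjusted p = 0.0445). It missed without control replicate 2 (adjusted p = 0.119), control replicate 3 (0.0742), long-term EMT replicate 1 (0.0688) and long-term EMT replicate 2 (0.0879). *Efna5* passed in 1 fit, without control replicate 1 (-0.84, adjusted p = 0.0243), and its adjusted p was between 0.0611 and 0.103 without any other array. All 4 genes kept their direction in every one of these fits. Control replicate 1 was the highest control for 6 of the 9 genes and the lowest for *Epha2* and *Epha4*. The same 4 genes passed without it.

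**Figure D2:**
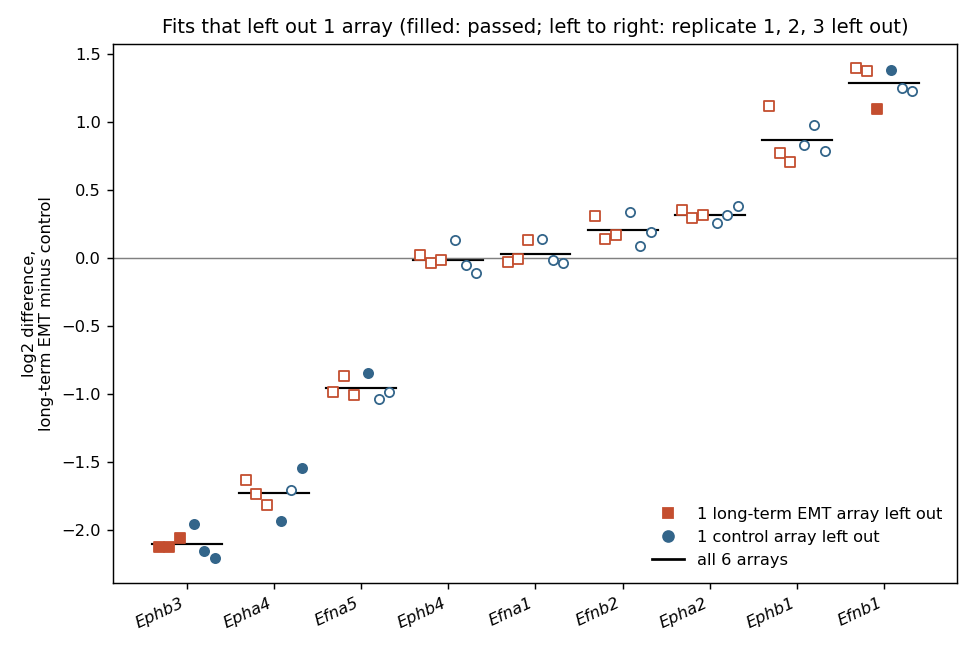
Log2 difference, long-term EMT minus control, of the 9 genes in the 6 fits that left out 1 array, with squares where a long-term EMT array and circles where a control array was left out, filled where the gene passed, and a black line for the fit on all 6 arrays. *Ephb3* is filled in all 6 fits, *Epha4* and *Efnb1* in 2 each and *Efna5* in 1, and the values of *Efna1* and *Ephb4* lie on both sides of 0.

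The mouse has 12 further ephrin and Eph receptor genes, all of them measured. Of these 1 fell, none rose and 11 did not pass, with a median log2 difference of 0.05. The gene that fell was *Epha1*, the receptor gene after which the family was named. Its values were 6.20, 5.81 and 6.20 in long-term EMT cells, against 7.28, 7.18 and 7.48 in control cells, without overlap. The log2 difference was -1.24 (standard error 0.14, adjusted p = 0.0121 from limma), and with 1 array left out it passed in 4 of 6 fits, missing without control replicate 2 (adjusted p = 0.052) and without long-term EMT replicate 3 (adjusted p = 0.0512). *Ephb6*, which encodes a receptor without kinase activity, had values of 4.42, 5.05 and 4.89 in long-term EMT cells, against 7.54, 6.72 and 5.77 in control cells. Its long-term EMT mean of 4.79 lay near the background level, below 5.09, the 99th percentile of the olfactory receptor probe sets. The control values were widely spread, and the log2 difference of *Ephb6*, -1.89 (standard error 0.44, adjusted p = 0.108 from limma), did not pass. With 1 array left out it passed in 1 of 6 fits, that without control replicate 3, the lowest control (-2.34, adjusted p = 0.0323). It was -1.46 without control replicate 1 (adjusted p = 0.0885), and the adjusted p lay between 0.271 and 0.288 in the other 4. *Epha10*, another receptor gene whose product lacks kinase activity, had a log2 difference of 0.30 (standard error 0.11, adjusted p = 0.325). *Epha3*, *Epha5*, *Epha6* and *Epha7* stayed under the background level in either group, with means between 3.56 and 4.22.

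Counted by subclass over all 21 measured genes, 1 of 5 A-type ephrin genes fell, 1 of 3 B-type ephrin genes rose, 2 of 9 EphA genes fell and 1 of 4 EphB genes fell. None of these receptor genes rose. In all, 5 of 21 genes passed, or 23.8%, beside 1.92% of all probe sets, 2.96% of all genes and 4.14% of the genes above the background level. The share was 44.4% of the 9 listed genes and 8.33% of the 12 other family genes. These lists were chosen with earlier results of these data known.

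**Figure D3:**
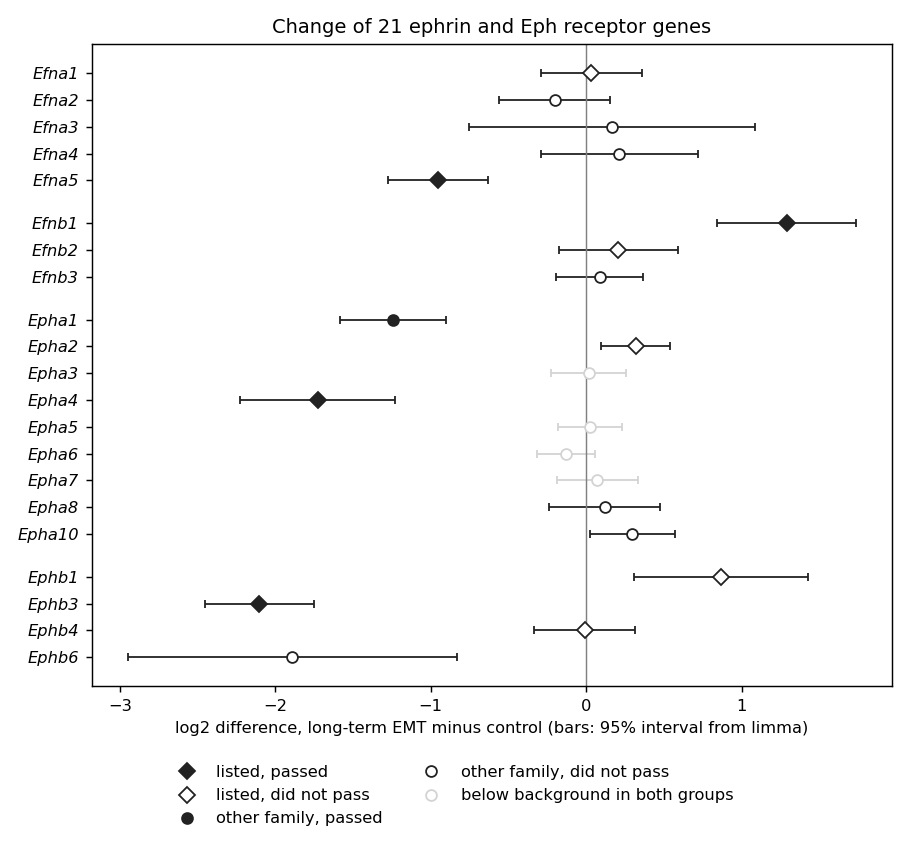
Log2 difference, long-term EMT minus control, of 21 ephrin and Eph receptor genes by subclass, with the 95% interval from limma. Diamonds are the listed genes and circles the other family genes, filled where the gene passed and grey where both groups lie below the background level. *Efnb1* is the 1 filled gene to the right of 0, and *Efna5*, *Epha1*, *Epha4* and *Ephb3* are filled to the left.

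Of the partners through which Eph receptors and ephrins signal inside the cell, most did not pass. Of 50 such genes (adaptors, exchange factors, GTPases, kinases, phosphatases, PDZ proteins and the ephrin sheddase gene *Adam10*), 45 were measured, 1 rose, 2 fell and 42 did not pass, with a median log2 difference of 0.033. The share that passed was 6.67%, beside 2.96% of all genes and 4.14% of the genes above the background level, and rests on 3 genes. *Grb7*, an SH2 adaptor that binds tyrosine kinase receptors, had values of 5.69, 5.60 and 5.47 in long-term EMT cells, against 9.83, 8.48 and 7.97 in control cells. It fell 9.02-fold, a log2 difference of -3.17 (standard error 0.45), with adjusted p = 0.0248 from limma. *Sipa1l1* encodes a Rap GTPase activating protein that acts with EphA4 in neurons. It had values of 9.42, 9.34 and 9.28 in long-term EMT cells, against 10.13, 10.07 and 10.17 in control cells, a log2 difference of -0.78 (standard error 0.08, adjusted p = 0.00776). *Fyn*, a Src family kinase gene, had values of 9.61, 9.30 and 9.53 in long-term EMT cells, against 8.57, 8.54 and 8.86 in control cells, a log2 difference of 0.82 (standard error 0.13, adjusted p = 0.033). The groups did not overlap for any of these 3 genes. Of all 45 measured partners, 19 had groups that did not overlap, 12 higher and 7 lower, where 24.1% of all genes had groups apart.

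*Src* itself, named after its values were seen, had a log2 difference of 0.51 (standard error 0.08, adjusted p = 0.0402 from limma), a 1.42-fold difference that is below the fold threshold. *Ngef* encodes ephexin, an exchange factor that binds EphA4. Its values were 5.46, 5.42 and 5.23 in long-term EMT cells and 7.94, 6.57 and 5.67 in control cells, a log2 difference of -1.36 (standard error 0.53, adjusted p = 0.338) that was -0.75 without control replicate 1. *Adam10* had a log2 difference of -0.14 (standard error 0.12, adjusted p = 0.731), and *Rhoa* and *Rac1*, the GTPase genes of the cytoskeleton, had 0.04 and -0.19. With 1 array left out, *Sipa1l1* missed without long-term EMT replicate 2 alone (adjusted p = 0.0571), *Grb7* passed without control replicate 1 (-2.64) and without control replicate 3 (-3.57), missing in the other 4 fits (adjusted p between 0.0941 and 0.119), and *Fyn* passed without control replicate 3 alone (0.92), with adjusted p between 0.056 and 0.143 in the other 5.

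**Figure D4:**
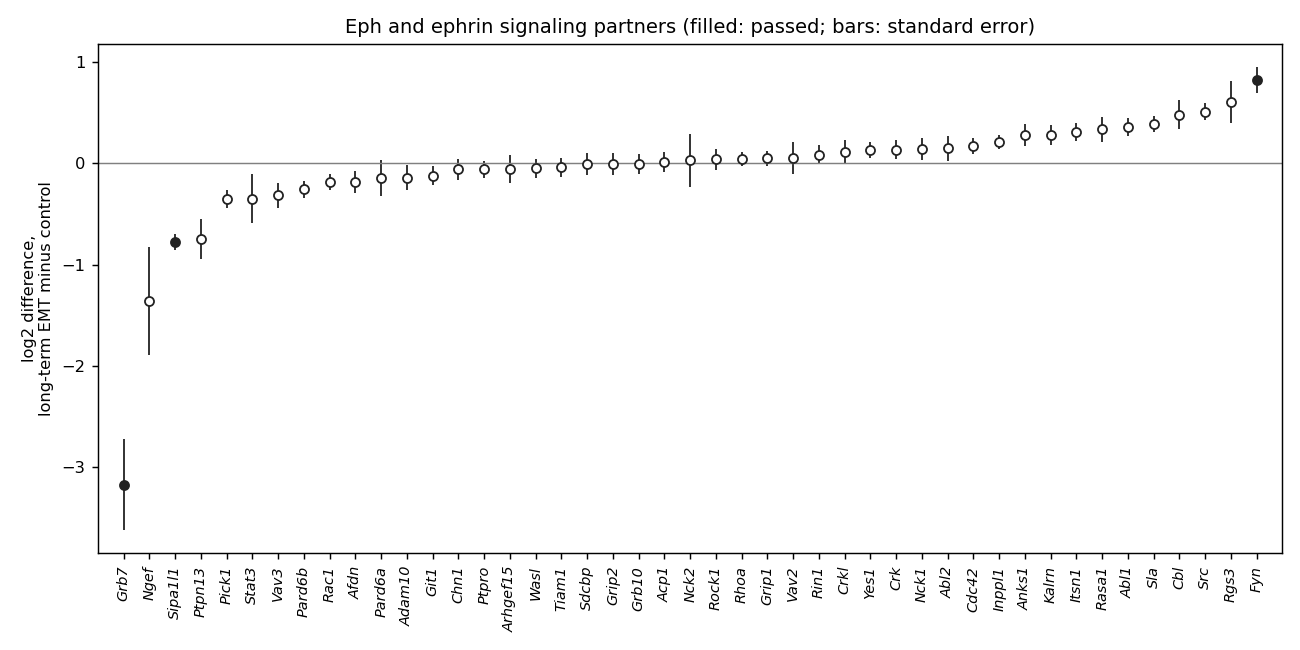
Log2 difference, long-term EMT minus control, of 45 genes that act with Eph receptors or ephrins, in order of the difference, with the standard error as bars and filled points for genes that passed. *Grb7*, *Sipa1l1* and *Fyn* are filled, and the other 42 lie between -1.36 and 0.61.

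Epithelial markers moved beside the Eph genes that fell. Of 8 mammary epithelial markers, 5 fell (*Krt7*, *Krt14*, *Epcam*, *Cldn7* and *Cdh1*) and none rose, and the mean log2 value over the list lay between 7.85 and 8.09 in long-term EMT arrays, against 9.87 to 10.38 in control arrays. The simple keratin genes *Krt8* and *Krt18* had log2 differences of -0.003 and 0.01. In bulk samples, fewer cells of a type and less RNA per cell cannot be told apart, and the part of these markers in the falls of *Ephb3*, *Epha4* and *Efna5* was not tested. Eph receptors and ephrins are also prominent in endothelial and neural cells. Of 7 endothelial markers, *Cdh5* rose and the others did not pass, and *Pecam1*, *Kdr*, *Tek* and *Emcn* were under the background level in either group. The list's mean was 4.58 to 4.81 in long-term EMT arrays, against 4.30 to 4.34 in control arrays. *Cdh5* had a log2 difference of 2.49, and the other markers of this list lay between 0.007 and 0.16. Of 4 neural markers, *Map2* fell and 3 did not pass, and the list's mean was 5.09 to 5.28 in long-term EMT arrays, against 5.60 to 6.05 in control arrays. The lower mean came from *Map2* (log2 difference -2.55), since *Rbfox3*, *Gfap* and *Sox10* had 0.12, 0.05 and 0.02. None of 6 fibroblast markers passed, but the list's mean was 6.01 to 6.21 in long-term EMT arrays, against 6.35 to 7.02 in control arrays. The groups did not overlap for *Pdgfrb* (log2 difference -1.31), *Pdgfra* (-0.95) and *Dcn* (-1.76), which were lower by value, and for *Col1a1* (0.62), which was higher. The *Dcn* controls were widely spread, at 7.68, 5.98 and 4.50, against 4.44, 4.33 and 4.11 in long-term EMT cells (standard error 0.74, adjusted p = 0.376 from limma). None of 5 leukocyte markers passed, and that list's mean was 4.50 to 4.54 in long-term EMT arrays, against 4.40 to 4.50 in control arrays. The part of these markers in the results on the Eph genes was not tested.

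Over the 6 arrays, the values most like those of *Ephb3*, among 13417 other genes above the background level in at least 1 group, were those of *St14* (matriptase, an epithelial membrane protease), *Mal* (apical membrane traffic), *Nipal2*, *Rassf7* and *Lratd2*, with Pearson's r of 0.9985 to 0.9994. All 5 fell, *St14* by 3.97 and *Mal* by 4.21 on the log2 scale, a direction that the choice by correlation fixed. The values most like those of *Efnb1* were those of *Agap1*, *Fbxo41*, *Rasa4*, *Ubash3b* and *Tmf1*, with r of 0.9898 to 0.9975. Of these *Ubash3b* rose, by 1.00 on the log2 scale (adjusted p = 0.0432 from limma), and the other 4 had log2 differences between 0.17 and 0.49 and did not pass. These correlations describe 6 arrays that fall into 2 groups and share their normalization.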

How the data were processed

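RNA of 3 long-term EMT and 3 control samples, 150 ng each, was hybridized to Affymetrix MoGene-1_1-st-v1 arrays, 1 per sample. The authors made the deposited log2 values with RMA in Affymetrix Expression Console (named in the submitters' processing notes, version not given in the sources used here), with 2 decimals for 35556 probe sets. They were used as deposited. GEO's platform annotation gives 1 gene symbol for 21218 probe sets, several for 1881 and none for 12457, and probe sets with several named no gene. Linear models were fitted in R 4.3.3 with lmFit and moderated with eBayes (limma 3.58.1), p-values were adjusted by Benjamini-Hochberg across the 35556 probe sets, and the script was tested on simulated data. The statistics in the paper name Student's test, which was run as an alternative. Pairs of genes were compared by an exact permutation test (scipy 1.17.1). The paper calls the array samples triplicates and says that cells were seeded in multi-well plates. For its data in general it names 3 independent experiments in triplicate. Whether the arrays of a group come from separate treatments is not given in the sources used here. The p-values measure only the spread between these samples, which may be technical, and the number of arrays limits the precision.

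The 10 genes and the lists were chosen with earlier results of these data known. Named were all 10 genes, the genes of the other lists that passed, up to 4 per list by size of change, and the 5 genes whose values were most like those of the member with the highest and with the lowest log2 difference. *Src*, *Adam10*, *Rhoa*, *Rac1*, *Efna3*, *Epha3*, *Epha5*, *Epha6*, *Epha7* and the cell type markers named were added after their values were seen. Of the partner list, *Chn2*, *Dvl2*, *Pak1*, *Ptk2* and *Rock2* had no probe set of their own in the annotation and were not analysed here. Alternatives were a replicate block, leaving out each array, the methods' t-test, another variance prior, 2 other normalizations, a filter on dim probe sets, other fold thresholds, the mean of a gene's probe sets and other background percentiles.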

Additional observations from a re-analysis of the deposited data

How the results depend on the processing

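Normalizing again, equal array medians, leaving out dim probe sets, another variance prior, the mean of a gene's probe sets and no fold threshold each left 4 of the 9 genes passing. The fit with the replicate number as a block gave 3 of the 9 genes, 0 higher and 3 lower (*Efnb1* missed, adjusted p = 0.0722 from limma), 1 other family gene, 2 partners and 534 probe sets. The labels share only a number, and whether same-numbered arrays were paired was not tested. Deviations from the group means correlated at 0.19, 0.02 and 0.25 between same-numbered arrays. Between long-term EMT and control arrays of different numbers they correlated at -0.27 to 0.14. Long-term EMT replicate 2 correlated better with control replicate 1 (0.06) than with its own number. With 1 array left out, 1 to 4 of the 9 genes passed, 0 to 2 other family genes, 0 to 3 partners and 205 to 954 probe sets, against 4, 1, 3 and 683 with all arrays. *Efna1* ranged from -0.032 to 0.14 and *Ephb4* from -0.11 to 0.13 in these fits. A fold above 2 gave 3 of the 9 genes, 1 partner and 420 probe sets. The methods' t-test at an unadjusted p under 0.05 gave 5 of the 9 genes (*Ephb1* added), 2 other family genes, 4 partners and 1326 probe sets, and after Benjamini-Hochberg adjustment 0 of the 9 genes, 0 other family genes, 1 partner and 69 probe sets, where limma gave 4, 1, 3 and 683. Above the 99th percentile of the olfactory receptor probe sets, 8 of the 9 genes lay in long-term EMT cells. The cause was not tested. Genes near the background level, such as *Epha4* in long-term EMT cells, have falls that may be understated.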
